A study of Mus musculus with 6 samples.

Results

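The mouse mitochondrial genome carries 37 genes, and all of them on the mitochondrial chromosome in GENCODE release M21 (GRCm38) were taken as members: 13 mRNAs, 2 rRNAs and 22 tRNAs, out of 54532 gene IDs in the gene tables. They were followed in 3T3-L1, a wild-type (WT) mouse fibroblast line that can be turned into adipocytes in culture, in 3 control libraries and 3 libraries labelled chronic intermittent hypoxia (CIH), that is, oxygen lowered again and again. Cells of both groups were grown in 10% serum, induced with insulin and then held in medium with 0.1 µM insulin up to day 8. The study compared gene expression of adipocytes between these conditions. The sources used here give no oxygen levels, cycle times or hour of harvest. The labels do not say whether libraries of a group came from separate cultures, so the p-values refer to the spread from library to library, and that spread may be technical.

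Mitochondria keep a small circular genome that is copied and transcribed apart from the nucleus. Both strands are read as long transcripts that span many genes, and tRNAs lie between most of the mRNAs and rRNAs, so that cutting the tRNAs out releases the other RNAs. The mRNAs encode core subunits of respiratory complexes I, III and IV and of the ATP synthase, the rRNAs form the mitochondrial ribosome, and every protein needed to transcribe, cut, modify and degrade these RNAs comes from nuclear genes. 3T3-L1 cells gain mitochondria as they become adipocytes.

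The libraries came in 2 kinds of table whose levels cannot be compared with each other. Replicates 1 and 2 of each group are gene tables with all 37 members, and replicate 3 of each group is a transcript table with entries for the 13 mRNAs only, summed per gene here. Values are FPKM, which divide a gene's fragments by its length in kilobases and by the sequencing depth. In the gene tables they could be turned back into whole fragments, 26451105 for control 1, 28557709 for control 2, 27415218 for CIH 1 and 27828541 for CIH 2, while for control 3 and CIH 3 the depth is unknown. Adipocyte markers were high in all 4 gene tables, where the summed FPKM of 8 of them was 6510 and 6825 in the controls and 7322 and 6486 in CIH. Cidec and Fabp4 weigh most in this sum. Taken singly, Pparg, Cebpa and Lipe fell, Cd36 rose and 4 did not pass the test described below. In the transcript tables the same sum was 27175 in control 3 and 542 in CIH 3, and 8 preadipocyte or fibroblast markers summed to 400.1 and 3088, against 186 to 236 in the 4 gene tables. Macrophage markers (6 genes) summed to 6.07 to 9.85 FPKM over the 6 libraries, with 2 to 4 of them at 0. The libraries labelled control 3 and CIH 3 are therefore given apart throughout.

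Along the genome, 28 members lie on the plus strand and 9 on the minus strand, the latter being mt-Nd6 and 8 tRNAs. Genes are packed end to end, and some share bases. The 43 bases shared by mt-Atp8 and mt-Atp6, both ATP synthase subunits, are shown in capitals because fragments from them belong to both genes (chrM:7913-7983, GRCm38, plus strand), as are the 7 bases shared by mt-Nd4l and mt-Nd4 (chrM:10153-10187, plus strand).
mt-Atp8 and mt-Atp6: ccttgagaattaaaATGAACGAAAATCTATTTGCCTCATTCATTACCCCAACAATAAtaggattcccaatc
mt-Nd4l and mt-Nd4: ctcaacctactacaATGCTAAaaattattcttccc

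A large part of the genome also exists as a copy in the nucleus, so that fragments from it can fit both places. On chromosome 1, 7 unprocessed pseudogenes in a row (24611535 to 24616197, minus strand) matched mitochondrial genes between positions 6390 and 11042, a stretch of 4653 bases. The matches covered 4136 of these bases at 99.71% identity or more, in 1 order and direction. The 517 bases between them, which hold 5 tRNAs and the start of mt-Atp8, were not compared. The stretch holds 11 members in full (mt-Co2, mt-Atp8, mt-Atp6, mt-Co3, mt-Nd3, mt-Nd4l and 5 tRNAs), covers 31.3% of mt-Co1 and 63.6% of mt-Nd4, and leaves 24 members outside. In 5 of the 7 pseudogenes no base differed from the mitochondrial gene within the match. The remaining ones each held 1 substitution, A1066T in mt-Co1 against Gm29216 and T3C in mt-Nd3 against Gm28438, counted from the first base of the mitochondrial gene. The windows around these bases are shown because they are the only differences within the matches, with the differing base in capitals. In the first pair the match starts 3 bases before the capital, and the letters before it lie outside the stretch (mt-Co1 chrM:6379-6407 and mt-Nd3 chrM:9459-9475, plus strand, Gm29216 chr1:24616171-24616197 and Gm28438 chr1:24613103-24613119, minus strand, GRCm38).
mt-Co1: gtggtctaaccggaAttgttttatccaac
Gm29216: ggattggcaggaTttgttttatccaac
mt-Nd3: atTaacctgtacactgt
Gm28438: atCaacctgtacactgt

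In the gene tables the mRNAs wholly inside this stretch stood below those wholly outside it. The 5 mRNAs wholly outside it (mt-Nd1, mt-Nd2, mt-Nd5, mt-Nd6 and mt-Cytb) lay between 1183 and 10014 FPKM in the 4 libraries, and the 6 mRNAs wholly inside it lay between 5.02 and 494 FPKM. In the transcript tables, where the copies are not listed, the same 6 inside mRNAs lay between 8332 and 136373 FPKM, and the 5 highest values of control 3 all belonged to them, led by mt-Atp8. The 5 tRNAs inside the stretch (mt-Ts1, mt-Td, mt-Tk, mt-Tg and mt-Tr) held at most 3 fragments in any gene table. Levels of members inside or partly inside the stretch are uncertain for this reason, and the sources used here do not say how fragments that fit both places were counted.

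**Figure D1:**
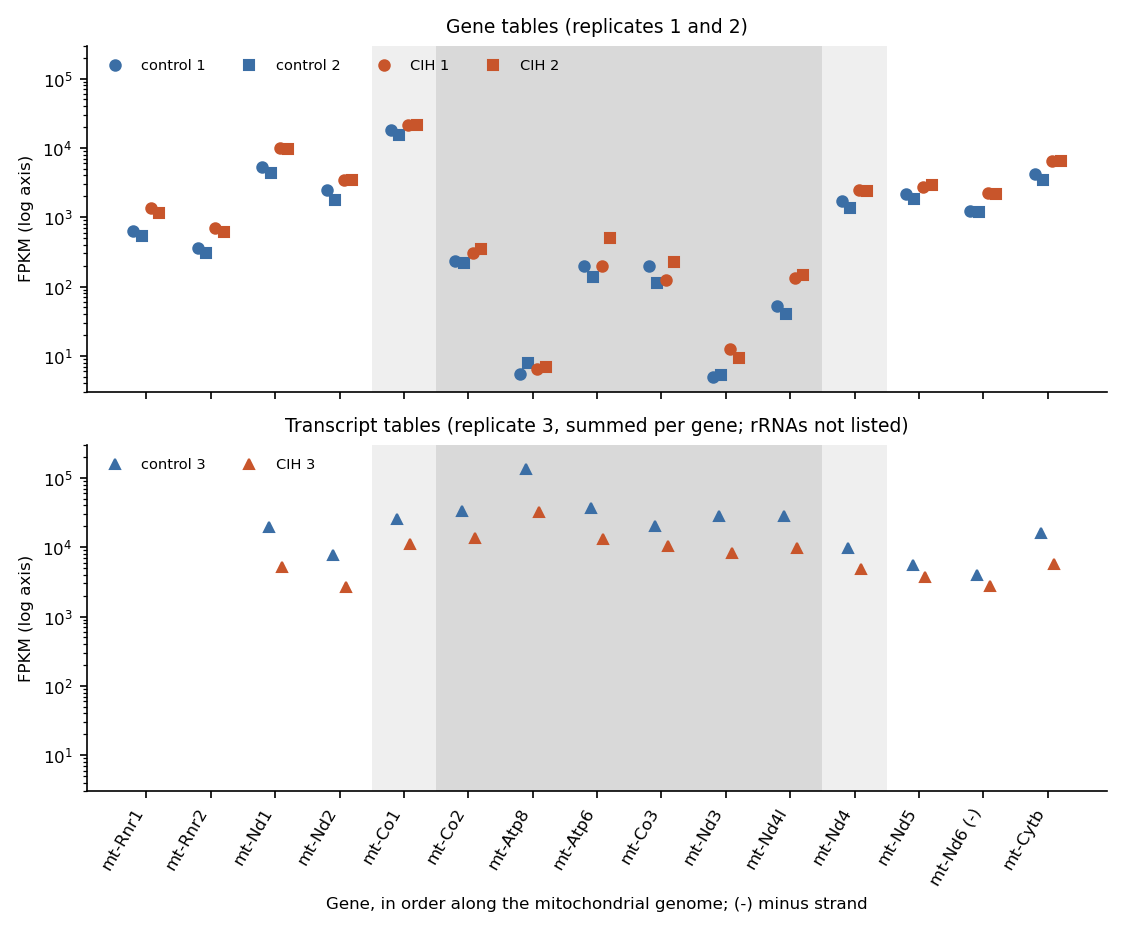
FPKM (log axis) of the 2 rRNAs and 13 mRNAs in order along the mitochondrial genome, with 1 point per library, for the gene tables (top) and the transcript tables (bottom). Dark grey marks genes inside the stretch copied on chromosome 1 and light grey genes partly inside it; the inside genes drop to 5.02 to 494 FPKM in the gene tables and do not drop in the transcript tables.

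Among the mRNAs outside or partly inside the stretch, mt-Co1, the catalytic core subunit of complex IV, had the highest level in the gene tables at 16764 ± 2254 FPKM in the controls (SD, n = 2). It was followed by the complex I subunit mt-Nd1 (4835 ± 706) and by mt-Cytb, the mitochondrially encoded subunit of complex III (3866 ± 543). Further down, mt-Nd2 (2098 ± 491) and mt-Nd5 (2010 ± 213) did not differ beyond their spread, and mt-Nd4 (1550 ± 266) and mt-Nd6 (1196 ± 18.8) came last. The rRNAs stood below these mRNAs, with mt-Rnr1 at 591 ± 66.8 and mt-Rnr2 at 333 ± 42.3 FPKM. The sources used here do not say how rRNA was removed from the total RNA before sequencing.

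Mitochondrial RNA was higher under CIH in replicates 1 and 2, for both rRNAs, 9 of 13 mRNAs and 5 of 7 tested tRNAs of the minus strand. The tRNAs mt-Tp and mt-Ts2 fell. For mt-Nd3, among these 9 mRNAs, the direction turned when its nuclear copy was added. Of the 37 members, 31 reached a mean of 1 FPKM and were tested with limma on log2(FPKM + 1), called at a Benjamini-Hochberg adjusted p under 0.05 over all genes. Of these, 17 rose, 2 fell and 12 did not pass. Over all 10981 genes tested, 41.9% were called, 20.2% higher and 21.7% lower, and the median log2 change was -0.01. The remaining 6 members, mt-Tf and the 5 tRNAs of the copied stretch, were below the limit; mt-Tf and mt-Td had 0 fragments in all 4 gene tables, which allows 3 fragments by counting error alone, or up to 1.71 FPKM for mt-Tf and 1.67 FPKM for mt-Td in control 1.

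Both rRNAs rose. mt-Rnr1, the small-subunit rRNA, was at 638 and 543 FPKM in control 1 and 2 and at 1375 and 1155 FPKM in CIH 1 and 2. Every CIH value lay above every control value, a 2.14-fold rise (log2 change 1.10, SE 0.15, limma adjusted p = 0.00149). mt-Rnr2, the large-subunit rRNA, went from 363 and 303 FPKM to 699 and 615 FPKM, again without overlap (1.98-fold, log2 change 0.98, SE 0.14, adjusted p = 0.00168). These are large fragment numbers, 13405 to 34346 per gene and library. How rRNA was removed before sequencing is not given, and its part in these rises was not tested.

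Of the 13 mRNAs, 9 rose, none fell and 4 did not pass, with a median log2 change of 0.73. In 11 of the 13 both CIH libraries lay above both controls, which was so for 35.9% of all genes tested. The mRNAs for complex I, the NADH dehydrogenase that feeds electrons into the respiratory chain, were all called higher. For mt-Nd3 among them, the direction turned when its nuclear copy Gm28438 was added. mt-Nd1 measured 5334 and 4336 FPKM in the controls and 10014 and 9741 FPKM in CIH, a 2.05-fold rise (log2 change 1.04, SE 0.18, adjusted p = 0.00467). mt-Nd2 measured 2445 and 1751 against 3403 and 3486 FPKM (1.66-fold, adjusted p = 0.0196). The groups did not overlap for either gene, and control 2 was the lowest library for both.

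The next complex I genes lie in, across or just beyond the stretch. mt-Nd4, partly inside it, rose from 1739 and 1362 to 2436 and 2411 FPKM (1.57-fold, adjusted p = 0.0169), and mt-Nd5, outside it, from 2160 and 1860 to 2724 and 2880 FPKM (1.40-fold, log2 change 0.48, SE 0.15, adjusted p = 0.0382). Neither gene had overlapping groups. Inside the stretch, mt-Nd4l rose from 52.1 and 39.8 to 134 and 148 FPKM, the largest change of any mRNA (3.04-fold, log2 change 1.61, SE 0.14, adjusted p = 0.000228), and mt-Nd3 from 5.02 and 5.24 to 12.6 and 9.43 FPKM (1.95-fold, adjusted p = 0.00156). For mt-Nd3 this rests on 45, 51, 115 and 90 fragments. Across the 8 plus-strand rRNAs and mRNAs not inside the stretch, the log2 change tended to be lower the further the gene lay along the genome (Spearman rho -0.67 over 8 genes of the same 4 libraries, a description across genes that are not independent).

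mt-Nd6 is the only mRNA on the minus strand and also encodes a complex I subunit. It measured 1210 and 1183 FPKM in the controls and 2207 and 2129 FPKM in CIH, a 1.81-fold rise without overlap (log2 change 0.86, SE 0.13, adjusted p = 0.00248). The libraries were made with a directional kit, but the sources used here do not say whether fragments were counted by strand. Reads of mt-Nd6 and of the minus-strand tRNAs can therefore not be told apart from antisense RNA of the plus-strand transcript.

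The other complexes moved less evenly. mt-Cytb rose from 4250 and 3481 to 6454 and 6390 FPKM (1.67-fold, log2 change 0.74, SE 0.17, adjusted p = 0.0142). Among complex IV subunits, mt-Co2 rose from 234 and 221 to 309 and 344 FPKM (1.43-fold, adjusted p = 0.00961). mt-Co1 measured 18358 and 15170 FPKM in the controls and 21316 and 21067 FPKM in CIH, higher in both CIH libraries but not past the threshold (log2 change 0.34, SE 0.21, adjusted p = 0.23). The groups did not overlap for any of these 3 genes.

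The remaining mRNAs, all inside the copied stretch, did not pass. The complex IV subunit mt-Co3 measured 194 and 111 FPKM in the controls and 123 and 225 FPKM in CIH, with overlapping groups (adjusted p = 0.688). mt-Atp6 measured 194 and 135 against 201 and 494 FPKM, where CIH 2 stood apart (log2 change 0.95, SE 0.38, adjusted p = 0.0811), and it was called without CIH 1 (adjusted p = 0.00272) or without control 1 (0.0205). mt-Atp8 measured 5.52 and 7.88 against 6.37 and 6.97 FPKM from 29 to 45 fragments, with a log2 change of 0.01 (adjusted p = 0.963).

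The mRNA calls depended on control 2, the library with the least mitochondrial RNA. Without it 4 mRNAs were called higher (mt-Co2, mt-Nd3, mt-Nd4l and mt-Nd6) and the median log2 change was 0.49, while leaving out any other library left 8 or 9 called; the call of mt-Nd5 was lost whichever of the 4 libraries was left out, and that of mt-Cytb also without control 1. The 5 mRNAs outside the stretch were all called, with a median log2 change of 0.74, falling to 3 without control 1 and 1 without control 2.

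**Figure D2:**
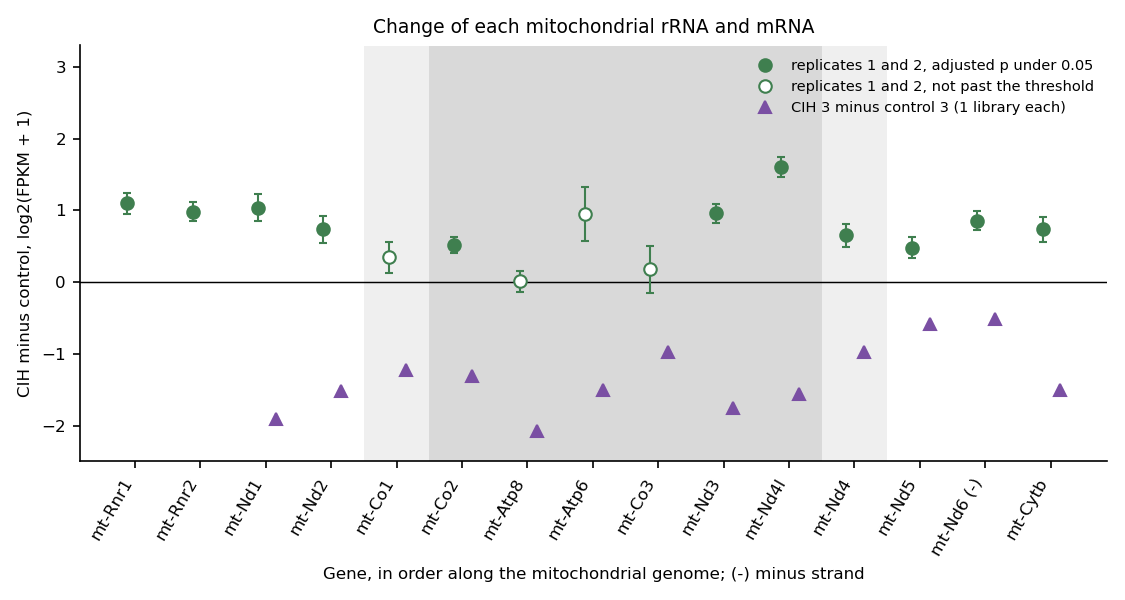
CIH minus control on the log2(FPKM + 1) scale for the 2 rRNAs and 13 mRNAs in genome order. Circles are replicates 1 and 2 with the standard error from limma, filled where the adjusted p was under 0.05, and triangles are CIH 3 minus control 3 with 1 library each; all 13 triangles lie below 0 and no circle does. Grey marks the copied stretch as in the plot of levels.

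Calls of the tRNA genes were tallied by the strand on which each gene is annotated. Of 22 tRNA genes, 16 were tested, 6 rose, 2 fell and 8 did not pass, with a median log2 change of 0.24. The genes are 59 to 75 bases long, and tRNAs already cut out cannot be told apart here from uncut transcripts that span them. Rises and falls of tRNAs therefore refer to fragments over the gene. On the minus strand 5 of 7 tested tRNAs rose and 1 fell (median 0.78), and on the plus strand 1 of 9 rose and 1 fell (median -0.12). The difference between strands was not tested. The sequences of mt-Te and mt-Tl1, which rose, and of the 2 that fell are shown because they carry the contrast between tRNAs, 5′ to 3′ as the gene's own strand, from the GENCODE M21 transcripts, with the anticodon in capitals (mt-Te chrM:14071-14139, minus; mt-Tl1 chrM:2676-2750, plus; mt-Tp chrM:15356-15422, minus; mt-Ts2 chrM:11613-11671, plus).
mt-Te: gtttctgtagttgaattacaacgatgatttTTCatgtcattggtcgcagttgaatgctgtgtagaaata
mt-Tl1: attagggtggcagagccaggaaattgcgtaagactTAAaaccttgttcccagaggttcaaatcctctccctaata
mt-Tp: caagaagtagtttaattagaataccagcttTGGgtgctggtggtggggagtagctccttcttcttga
mt-Ts2: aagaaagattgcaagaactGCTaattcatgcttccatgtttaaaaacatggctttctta

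Beside mt-Nd6 on the minus strand, the glutamate tRNA mt-Te measured 7.32 and 7.77 FPKM in the controls and 34.9 and 28.5 FPKM in CIH, from 13, 15, 63 and 54 fragments. The groups were far apart, a 3.81-fold rise (log2 change 1.93, SE 0.11, adjusted p = 4.71e-05), or 1.05 on depth-scaled fragments, where the added 1 weighs more (adjusted p = 0.000157). A cluster of 4 minus-strand tRNAs between mt-Nd2 and mt-Co1 also rose. In it the asparagine tRNA mt-Tn went from 107 and 105 to 181 and 180 FPKM (1.70-fold, adjusted p = 0.000958) and the cysteine tRNA mt-Tc from 170 and 194 to 315 and 308 FPKM (1.71-fold, adjusted p = 0.00195). The groups of both were well separated, with 195 to 558 fragments a library.

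The rest of the cluster was scarce. The tyrosine tRNA mt-Ty went from 15.7 and 28.8 to 33.1 and 41.9 FPKM (1.72-fold, adjusted p = 0.0418), and its call was lost without control 1, CIH 1 or CIH 2. The alanine tRNA mt-Ta went from 1.69 and 1.04 to 6.65 and 5.81 FPKM (adjusted p = 0.000275), that is from 3 and 2 to 12 and 11 fragments, and it was not called on depth-scaled fragments without the division by length (adjusted p = 0.098). The glutamine tRNA mt-Tq, also on the minus strand, lies outside this cluster, between mt-Nd1 and mt-Nd2. It overlapped between groups at 3.28 and 10.1 against 7.54 and 4.11 FPKM and did not pass (log2 change -0.06). Its direction turned with the control left out, at 0.62 without control 2 and -0.74 without control 1, both called.

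mt-Tp, the proline tRNA at the end of the gene array next to the control region, stood apart from all other tRNAs in level. It measured 7427 and 4469 FPKM in the controls and 3259 and 3380 FPKM in CIH, or 12805, 8381, 5712 and 6213 fragments. Both CIH libraries lay below both controls and the controls differed widely, a 1.74-fold fall (log2 change -0.80, SE 0.25, adjusted p = 0.0372). Without control 1 the log2 change was -0.43 (adjusted p = 0.313), and the call was also lost without CIH 1 (0.0971) or CIH 2 (0.0591).

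On the plus strand the tRNAs between mt-Nd4 and mt-Nd5 did not rise. mt-Ts2, a serine tRNA that lacks the usual D arm, fell from 136 and 133 to 88.1 and 95.1 FPKM (1.46-fold lower, log2 change -0.55, SE 0.10, adjusted p = 0.00431). Its neighbours overlapped between groups: the leucine tRNA mt-Tl2 measured 233 and 234 against 249 and 184 FPKM (adjusted p = 0.541), and the histidine tRNA mt-Th 83.5 and 114 against 85.6 and 91.4 FPKM (adjusted p = 0.482). The plus-strand exception was mt-Tl1, the leucine tRNA between mt-Rnr2 and mt-Nd1, both of which rose. It measured 70.5 and 41.9 FPKM in the controls and 160 and 161 FPKM in CIH, a 2.92-fold rise without overlap (log2 change 1.55, SE 0.21, adjusted p = 0.00166). The other tested plus-strand tRNAs, mt-Tv, mt-Ti, mt-Tm, mt-Tw and mt-Tt, ranged from 0.554 to 40.8 FPKM and did not pass. Of these mt-Ti (log2 change -1.09, adjusted p = 0.0612) and mt-Tm (-0.74, adjusted p = 0.0921) were lower in CIH, on 2 to 20 fragments. Without control 1 both were called lower, and mt-Tw (0.71) and mt-Tt (1.22) were called higher.

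**Figure D3:**
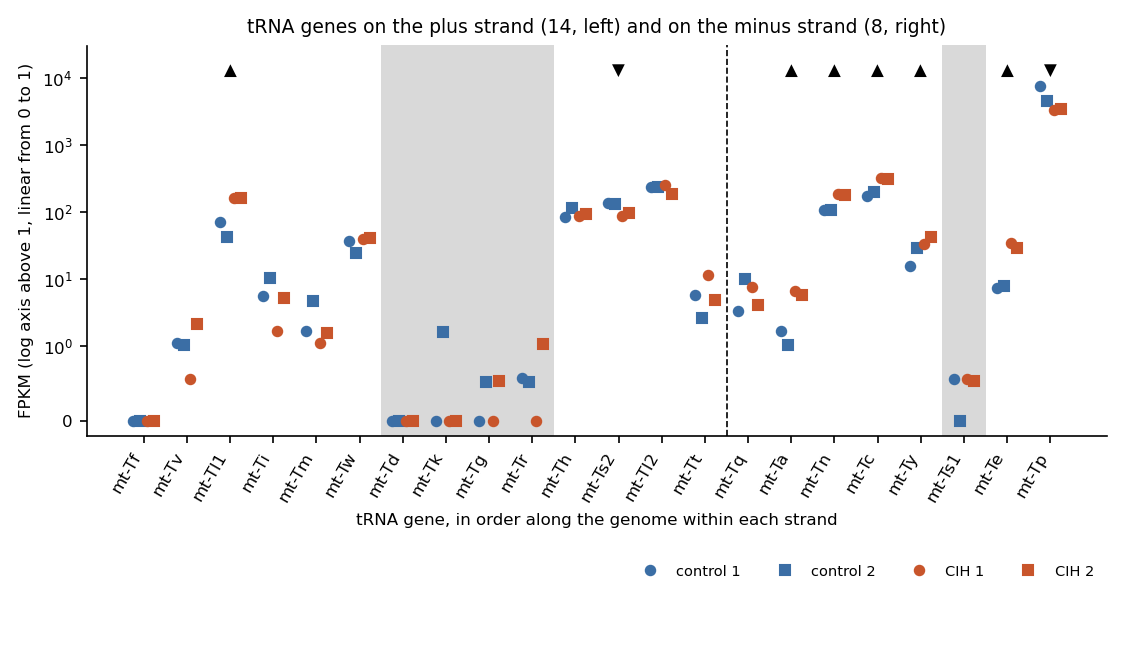
FPKM of the 22 tRNA genes in the 4 gene tables, on an axis that is linear from 0 to 1 and logarithmic above, with 14 plus-strand genes left of the dashed line and 8 minus-strand genes right of it. Upward and downward marks show genes called higher or lower in CIH, grey marks genes inside the copied stretch, and mt-Tp lies at 3259 to 7427 FPKM while no other tRNA exceeds 315 FPKM.

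Per length, the classes took different shares of the FPKM total. The mRNAs made up 11.3% and 9.28% in the controls and 13.7% and 14.5% in CIH, and the rRNAs 0.311% and 0.265% against 0.574% and 0.520%. The tRNAs went the other way, at 2.58% and 1.68% against 1.24% and 1.33%, but without mt-Tp they made up 0.274% and 0.286% against 0.337% and 0.340%. With all members together the mean share was 3.21 percentage points higher in CIH, or 1.75 without control 2. The groups did not overlap for any of these shares, and the exact two-sided permutation test of 2 against 2 gave p = 0.333, the smallest it allows. Counted as fragments, where gene length does not weigh in, members took 4.87% and 4.02% in the controls and 6.31% and 6.47% in CIH, of which tRNAs were at most 0.0542%.

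Within a library, a gene's ratio to the geometric mean of the 13 mRNAs does not depend on how that library was scaled. On this scale the CIH mean minus the control mean was 0.39 log2 units for mt-Rnr1, 0.28 for mt-Rnr2 and 0.33 for mt-Nd1, but -0.37 for mt-Co1 and -1.51 for mt-Tp. For mt-Rnr1 the values were 0.43 and 0.44 in the controls and 1.03 and 0.62 in CIH, and for mt-Co1 5.28 and 5.25 against 4.99 and 4.81. The groups overlapped for neither gene. mt-Cytb (0.03) and mt-Nd2 (0.02) stayed close to the mean. The mean includes the mRNAs inside the copied stretch, whose levels are uncertain. Without the short mRNAs mt-Atp8, mt-Nd4l, mt-Nd3 and mt-Nd6 in it, the differences were 0.47 for mt-Rnr1, 0.36 for mt-Rnr2 and 0.41 for mt-Nd1. They were then -0.28 for mt-Co1 and -1.42 for mt-Tp. This second mean still held mt-Co2, mt-Atp6 and mt-Co3 of the copied stretch, so it does not remove the uncertainty from that stretch.

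The nuclear copies are given beside their members in the gene tables. They are no independent reading, since fragments from the matches can fit both places. mt-Co2, mt-Atp6 and mt-Co3 lay close to their copies, at 1.09 to 1.52 times Gm28661, 1.07 to 2.03 times Gm10925 and 1.14 to 2.33 times Gm28437. Gm28661 and Gm10925 rose beside the members they copy (log2 changes 0.61 and 0.97, adjusted p = 0.0099 and 0.0178), though mt-Atp6 itself did not pass. mt-Nd4l was 0.748 to 2.57 times Gm10222. The other ratios were far from even: mt-Co1 was 48.9 to 116.7 times Gm29216 and mt-Nd4 40.3 to 71.9 times Gm28439, whereas mt-Nd3 was only 0.0211 to 0.0718 times Gm28438.

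For mt-Nd3 and mt-Nd4l the gene and its copy moved differently. Gm28438 measured 213 and 248 FPKM in the controls and 176 and 175 FPKM in CIH and fell (log2 change -0.39, adjusted p = 0.0284), while mt-Nd3 rose. The sum of the pair was 218 and 253 against 189 and 184 FPKM, so the direction of mt-Nd3 turns when its copy is added. Gm10222, the copy of mt-Nd4l, measured 67.9 and 53.2 against 58.3 and 57.5 FPKM (adjusted p = 0.754), and its sum with mt-Nd4l was 120.0 and 93.0 against 192 and 205 FPKM. Less alike copies on chromosome 2 were low beside their members: Gm13339 (96.7% identical to mt-Nd2) at most 1.93 FPKM, Gm13341 (95.9% identical to mt-Co2) at most 4.55 and Gm13340 (97.6% identical to mt-Co1) at most 33.1. The part that shared reads played in the calls of the 8 mRNAs in or partly in the stretch was not tested.

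**Figure D4:**
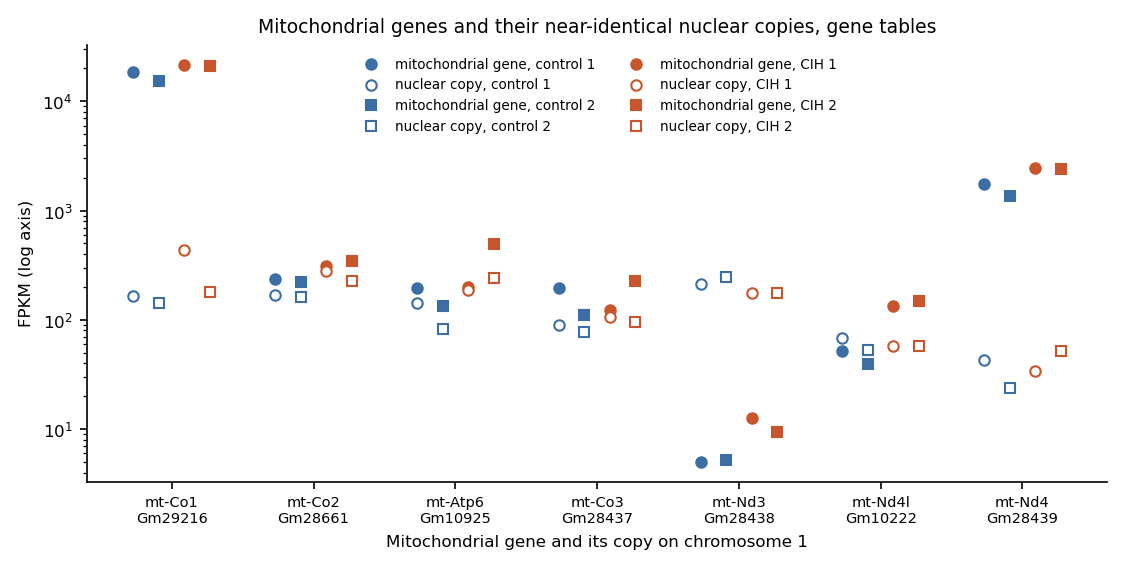
FPKM (log axis) of 7 mitochondrial genes (filled) and their copies on chromosome 1 (open) in each gene table. mt-Co2, mt-Atp6 and mt-Co3 lie within 2.33-fold above their copies, mt-Co1 and mt-Nd4 far above, and mt-Nd3 far below its copy.

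In the replicate 3 pair the mRNAs went the opposite way. All 13 were lower in CIH 3 than in control 3, where 36.4% of all 11620 genes were, and 9 of 13 were at least 2-fold lower, where 11.3% of all genes were. The median log2 difference was -1.50 against 0.31 over all genes. With 1 library per group there is no test and no replicate check.

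The size of the difference varied with the gene. mt-Atp8 had the highest value of any member, 136373 FPKM in control 3 and 32434 FPKM in CIH 3, and the largest difference (4.20-fold lower). mt-Nd1 followed with 19413 and 5152 FPKM (3.77-fold lower), then mt-Nd3 with 28081 and 8332 FPKM (3.37-fold lower). mt-Nd4l (28611 and 9743), mt-Nd2 (7703 and 2689), mt-Atp6 (36822 and 12934) and mt-Cytb (16059 and 5685) were 2.82 to 2.94-fold lower.

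The remaining mRNAs differed less. mt-Co2 measured 33875 and 13653 FPKM (2.48-fold lower), mt-Co1 25809 and 11001 FPKM (2.35-fold lower), and mt-Co3 20199 and 10291 FPKM (1.96-fold lower). mt-Nd4 measured 9647 and 4923 FPKM (1.96-fold lower) and mt-Nd5 5525 and 3695 FPKM (1.49-fold lower). The minus-strand mRNA mt-Nd6 differed least, at 3976 and 2791 FPKM (1.42-fold lower), and relative to the mRNA mean of its library it was 0.83 log2 units higher in CIH 3. mt-Nd5 was 0.76 units higher on that scale and mt-Nd1 0.58 units lower (-0.58). Leaving the copied stretch aside, 5 of 5 mRNAs were lower, 3 of them by 2-fold or more, and their median was -1.50.

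Other markers moved with this pair. All 8 adipocyte markers were at least 2-fold lower in CIH 3 (median log2 difference -5.20) and 7 of 7 preadipocyte or fibroblast markers above the limit were at least 2-fold higher (median 3.03). In replicates 1 and 2, 1 adipocyte marker rose, 3 fell and 4 did not pass (median -0.08), and 5 of 7 preadipocyte or fibroblast markers rose and 2 fell (median 0.54). The part of these markers in the mitochondrial changes of either set of libraries was not tested. In bulk RNA, fewer cells of a type and less RNA per cell cannot be told apart. The difference between the replicates in the direction of the mitochondrial mRNAs coincides with the kind of table. It also coincides with the marker difference between control 3 and CIH 3, and these cannot be told apart.

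Of 75 tested nuclear genes that transcribe, cut, modify or degrade mitochondrial RNA, charge its tRNAs, maintain its genome or regulate mitochondrial biogenesis, 17 rose and 9 fell in replicates 1 and 2, or 34.7%, beside the 41.9% called among all genes. None of 8 tested transcription genes passed (median log2 change 0.08). Polrmt, the mitochondrial RNA polymerase, measured 18.8 and 19.6 FPKM in the controls and 22.9 and 22.0 FPKM in CIH (adjusted p = 0.0755). Tfam, which packages the mitochondrial genome and helps start transcription, measured 11.3 and 9.97 FPKM against 10.8 in both CIH libraries (adjusted p = 0.868), and Tfb2m, the other initiation factor, 13.8 and 12.8 against 15.2 and 13.4 FPKM (adjusted p = 0.46). Only Polrmt had groups without overlap among the 3.

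RNA processing and RNA stability genes made up 11 of the 17 rises, from lists with 18 and 7 tested genes. Over all tested genes 20.2% were called higher, and the lists were chosen with earlier results of these data known. In processing and modification 7 of 18 rose and 1 fell (median 0.27), among them Pus1, a pseudouridine synthase (0.58, adjusted p = 0.00501), and Trmt10c, a subunit of the enzyme that cuts tRNAs at their 5′ end (0.44, adjusted p = 0.0216), and Mrm3, an rRNA methyltransferase (0.38, adjusted p = 0.0239). The falling gene was Grsf1, an RNA granule protein, from 77.1 and 77.5 to 51.8 and 49.6 FPKM (-0.60, adjusted p = 0.00212). In stability and decay 4 of 7 rose and none fell (median 0.30). Lrpprc, which stabilises mitochondrial mRNAs, had the largest rise in that list, from 25.0 and 23.6 to 41.1 and 39.6 FPKM (1.63-fold, log2 change 0.71, SE 0.09, adjusted p = 0.000986), and Rexo2 (0.47) and Fastkd3 (0.40) rose too. In the replicate 3 pair Lrpprc was lower, at 39.9 and 26.7 FPKM, and the medians of these lists were -0.42 and -0.55.

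The remaining lists were mixed, and over all tested genes 20.2% were called higher and 21.7% lower. Of 20 tRNA synthetase and amidotransferase genes 4 rose and 2 fell (median 0.16), with Lars2, Sars2 and Yars2 each up by 0.41 and Ears2 (-0.25) among those that fell. Ears2 charges the glutamate tRNA mt-Te. In DNA replication and maintenance none of 13 rose and 3 fell: Endog, a mitochondrial nuclease (-0.77, adjusted p = 0.000544), Tk2, a nucleoside kinase (-0.55, adjusted p = 0.00221), and Lig3, a DNA ligase (-0.42, adjusted p = 0.00987).

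Among regulators of mitochondrial biogenesis 2 of 9 rose and 3 fell, beside 20.2% called higher and 21.7% called lower over all tested genes. Ppargc1b, a coactivator of mitochondrial genes, fell from 18.6 and 16.2 to 8.43 and 10.6 FPKM (1.76-fold lower, adjusted p = 0.00231), and it was also lower in CIH 3, at 3.10 against 27.6 FPKM. Sirt3 (-0.49), a mitochondrial deacetylase, and Gabpa (-0.41), a transcription factor of nuclear mitochondrial genes, fell, while the coactivator Pprc1 (0.48) and the transcription factor Nrf1 (0.45) rose. Without CIH 1 the 6 lists held 5 rising and 5 falling genes.

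**Figure D5:**
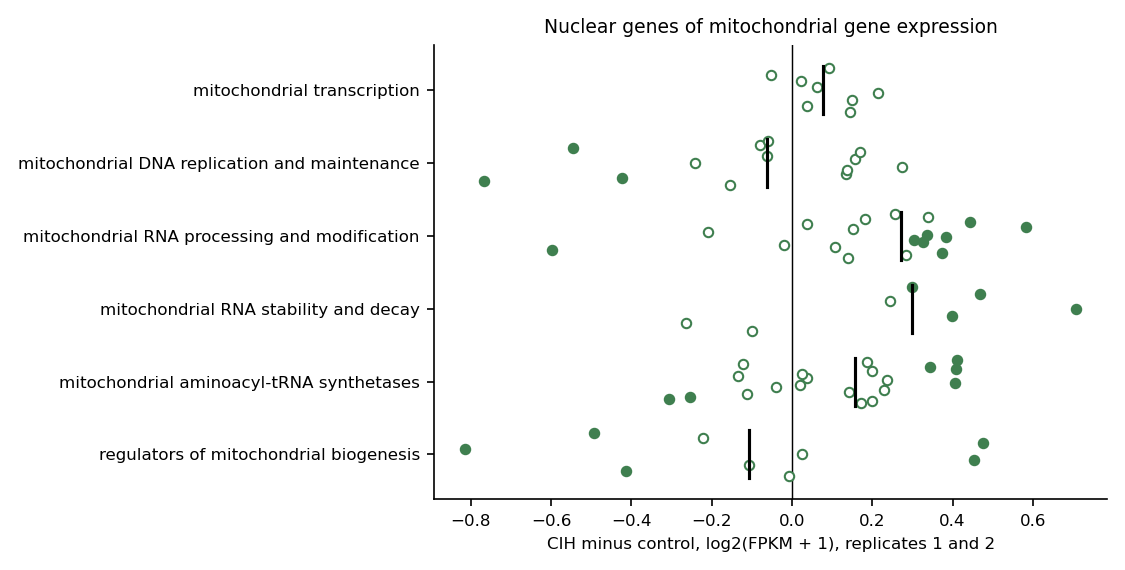
CIH minus control on the log2(FPKM + 1) scale in replicates 1 and 2 for 75 tested nuclear genes in 6 lists, 1 point per gene, filled where the adjusted p was under 0.05, with the list median as a bar. No transcription gene is filled, and RNA stability and decay has the highest median at 0.30.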

How the data were processed

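The deposited tables give FPKM per gene (replicates 1 and 2) or per transcript entry (replicate 3), a unit read from the values, since headers give only names. The submitters' processing notes list GRCm38, featureCounts 1.5.0-p3 and DESeq 1.8.3, with no role stated; aligner and strand setting: not given in the sources used here. FPKM times exon length lay within 0.05 of a whole fragment for 98.4% to 98.6% of genes under 50 fragments in the gene tables, against 37.2% and 33.8% in transcript tables, and median-of-ratios factors of the 4 gene tables equalled 1. Entries of replicate 3 were summed per gene. Libraries of a group differed by more than sampling noise (mean chi-square per gene 15.3 in control and 10.3 in CIH) and were kept as separate replicates.

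Genes averaging 1 FPKM or more were tested with limma 3.58.1 (R 4.3.3, trend) on log2(FPKM + 1), which understates changes of low genes; control 1 and 2 against CIH 1 and 2 formed the fit, and the replicate 3 pair was described only. The script was tested on simulated data. Members, lists and tests were chosen with earlier results of these data known. All mRNAs and rRNAs, the called tRNAs, the 5 highest tRNAs and, per nuclear list, up to 3 rises and 3 falls were named, with Polrmt, Tfam, Tfb2m and Lrpprc; 1 gene that the rule names is not reported here. Of 83 symbols in the nuclear lists, 81 were in the gene tables. Copies were sought with blastn 2.17.0 (at least 95% identity over 200 bases) among GENCODE M21 nuclear transcripts rather than the genome that had been planned, so unannotated copies were not searched. Python 3.11.15 drew the figures.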

Additional observations from a re-analysis of the deposited data

Results flagged for a closer look

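In 11 of the 13 mRNAs (mt-Nd1, mt-Nd2, mt-Co1, mt-Co2, mt-Atp6, mt-Nd3, mt-Nd4l, mt-Nd4, mt-Nd5, mt-Nd6 and mt-Cytb) both CIH libraries lay above both controls in replicates 1 and 2, while CIH 3 lay below control 3. The 2 sets of libraries thus moved in opposite directions. The difference between them was not tested, since the replicate 3 pair has 1 library per group.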

How the results depend on the processing

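The mRNA median kept its direction under every alternative run, and both rRNAs did under every run that held them. The rRNAs are not listed in the transcript tables, so the runs on genes in all 6 files and with all 6 libraries left them out. Without the filter on low values, calls over all genes were 1122 higher and 1418 lower, with 2 mRNAs and 1 rRNA higher, 1 tRNA lower, and 6 nuclear list genes higher and 4 lower. The 2 mRNAs were mt-Nd3 and mt-Nd4l, both inside the copied stretch, and 0 of the 5 mRNAs outside it were called. With all 6 libraries and a term for the kind of table, calls were 20 higher and 43 lower, with 0 mRNAs, 0 nuclear list genes higher and 0 lower, and an mRNA median of 0.054; there mt-Nd2 (-0.016), mt-Co2 (-0.094) and mt-Cytb (-0.0064) turned sign, as did mt-Co1 (-0.18), mt-Co3 (-0.21) and mt-Atp8 (-0.68), and none of the 6 was called there. On genes in all 6 files 4 mRNAs were called, of which 1 (mt-Nd6) lay outside the stretch. Without the trend mt-Co1 passed (adjusted p = 0.0482). The mRNA median was 0.66 on totals without mitochondrial genes and 0.80 (0.795) on upper quartiles. Median-of-ratios scaling changed no value of replicates 1 and 2, its factors being 1 there, so it was no separate alternative for them. For CIH 3 against control 3 the mRNA median of -1.50 became -1.33 on totals, -1.94 on median of ratios (where the median of all genes was -0.09), -1.67 on upper quartiles and -1.40 without mt-Atp8; relative to the median of all genes it was -1.79 to -1.85 under these 3 scalings. Leaving out 1 library gave 1107 to 2305 higher and 1458 to 2286 lower calls, 4 to 9 mRNAs higher, 1 to 4 tRNAs lower, 5 to 16 nuclear list genes higher and 5 to 9 lower, and an mRNA median of 0.49 to 0.87; the low counts over all genes and nuclear lists came without CIH 1. mt-Tq was at 0.62 without control 2 and -0.74 without control 1. The cause of these changes was not tested.

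Replicate numbers were not shown to pair the libraries: same-numbered libraries deviated with a correlation of -0.13 across genes. With the replicate block 2031 genes were higher and 2160 lower, and 4 tRNAs were lower. The crossed block, chosen after seeing the data, gave 2440 and 2549 calls, with 10 mRNAs higher. Of 19 called members, 12 kept their call whichever library was left out. Transcript-table depth is unknown, and members with under 20 fragments limit what the tRNA values can show.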
